A study of Mus musculus with 16 samples.

Results

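Trained skeletal muscle of mice that carry a CHCHD4 transgene (Tg) was compared with trained skeletal muscle of wild-type (WT) mice by RNA-seq, across all expressed genes. The comparison was set by the sample labels, which place 4 libraries of 16 in the Tg trained group and 4 in the WT trained group, so that 8 of the 16 libraries are members. Every member library came from mice given treadmill training. The other 8 libraries, 4 Tg untrained and 4 WT untrained, were used for the shared estimate of spread and to set the transgene contrast beside the same contrast without training. The labels give neither the muscle, the age, sex or strain of the mice, the promoter of the transgene, the amount of training, nor the time between the last run and sampling. Nor is it stated that the 4 libraries within each group are of different mice, so that p-values measure the spread between libraries, which may be technical.

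CHCHD4, known as Mia40 in yeast, is the import receptor and oxidoreductase of the mitochondrial intermembrane space. It forms disulfide bonds in small cysteine-rich proteins as they enter, which traps them there in folded form. AIFM1 holds CHCHD4 at the inner membrane, and the sulfhydryl oxidase GFER takes the electrons on toward cytochrome c. TRIAP1, named in the title of the study, is a small substrate of this relay that works with PRELI proteins in the transport of phosphatidic acid for cardiolipin synthesis.

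Totals of expected counts were 48053598 to 61703724 in the Tg trained libraries and 40888325 to 54891558 in the WT trained libraries. The summed level of 14 skeletal myofibre markers was 200200 to 212300 CPM (counts scaled to library size after TMM) in Tg trained and 198900 to 218800 CPM in WT trained libraries. The libraries also differed in ways that the groups do not explain. The liver transcript Alb was at most 0.0644 CPM in Tg trained muscle and at 35.6 CPM in WT trained replicate 4, against at most 0.236 CPM in the other WT trained libraries. The slow myosin gene Myh7 was at 1.16 to 2.5 CPM in Tg trained muscle and at 29.7 CPM in WT trained replicate 3, against 2.22 to 6.62 CPM in the other WT trained libraries. Among untrained libraries, Alb was at 14.97 CPM in Tg replicate 2 and 14.93 CPM in WT replicate 2, against at most 0.2006 CPM in the others. WT untrained replicate 2 also had the highest TMM factor of the 16 libraries, 1.285. Its myofibre marker sum was 147200 CPM, against 205600 to 213300 CPM in the other WT untrained libraries. The cause was not tested. In bulk tissue, fewer cells of a type and less RNA per cell cannot be told apart.

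Of 17490 genes tested with edgeR's quasi-likelihood test, 2 were called, at a p under 0.05 after Benjamini-Hochberg adjustment. Chchd4 rose, which is 0.00572% of the genes tested, and Csf2ra fell, which is likewise 0.00572%. The third smallest adjusted p was 0.111. Without adjustment, 567 genes (3.24%) were higher and 828 genes (4.73%) were lower in Tg trained muscle at a p under 0.05. All 4 Tg trained libraries lay above all 4 WT trained libraries for 514 genes (2.94%), and below them for 482 genes (2.76%). These shares are the background for the counts in gene lists given here. The median log2 fold change (log2FC, Tg over WT) of all genes was -0.003, and 8899 of the 17490 were negative. DESeq2 on the same counts called 54 genes, of which 12 were higher and 42 were lower in Tg trained muscle, so the number of calls depends on the tool.

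Chchd4 (ENSMUSG00000034203.8, GRCm38 chromosome 6, 91462172 to 91473546) is the gene of the transgene and checks the labels. It was at 22.2, 21.6, 21.6 and 21.8 CPM in the Tg trained libraries, against 8.04, 8.85, 8.41 and 7.26 CPM in the WT trained libraries. All Tg libraries lay close together and far above the WT libraries, with means of 21.8 ± 0.306 CPM and 8.14 ± 0.671 CPM (SD, n = 4 each). Chchd4 rose 2.68-fold (log2FC 1.42 ± 0.08 SE, adjusted p = 1.64e-07, edgeR). Without training it was at 20.3 ± 1.69 CPM in Tg and 7.90 ± 0.885 CPM in WT libraries (SD, n = 4 each). The counts do not separate transcripts of the transgene from those of the resident gene.

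**Figure D1:**
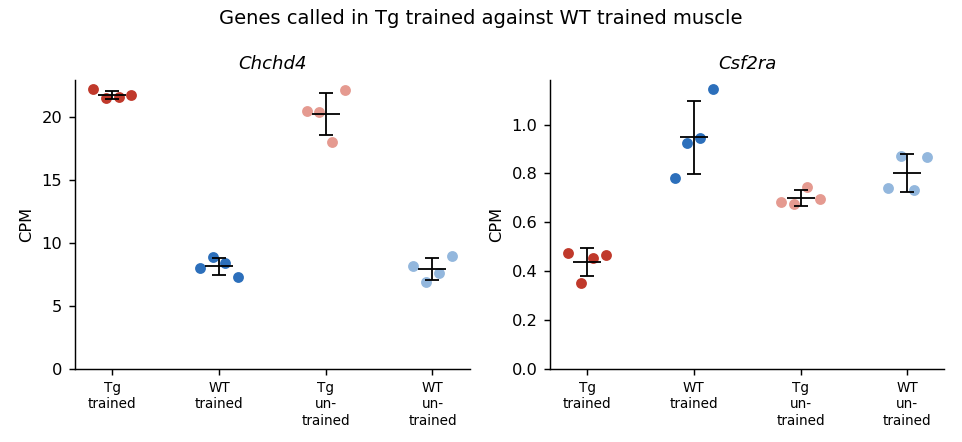
CPM of Chchd4 and Csf2ra in each library of the 4 groups, with the mean and SD of 4 libraries (n = 4 per group); the axes start at 0. Chchd4 lies at 21.6 to 22.2 CPM in the Tg trained libraries and at 7.26 to 8.85 CPM in the WT trained libraries, and Csf2ra at 0.351 to 0.472 CPM in the Tg trained and 0.781 to 1.14 CPM in the WT trained libraries.

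The partners of CHCHD4 in the relay were not called. Gfer was at 14.7, 13.4, 13.4 and 13.9 CPM in Tg trained muscle, against 15.6, 16.6, 16.3 and 14.9 CPM in WT trained muscle. The Gfer groups did not overlap, with Tg lower, but the log2FC of -0.19 ± 0.07 (SE) had an adjusted p of 0.456. Aifm1 had a log2FC of 0.07 ± 0.11 (SE, adjusted p = 0.935). Triap1 was at 3.84, 4.16, 4.17 and 4.37 CPM in Tg trained muscle, against 4.61, 4.03, 4.82 and 3.93 CPM in WT trained muscle. The Triap1 groups overlapped, with a log2FC of -0.07 ± 0.08 (SE, adjusted p = 0.911). Of the 33 genes of the relay and its substrates, 22 had a positive and 11 a negative log2FC, with a median of 0.03, which was 0.003 to 0.06 with single trained libraries left out. At an unadjusted p under 0.05, Chchd4 alone was higher and Gfer alone was lower. Cox17, a copper chaperone for cytochrome c oxidase and a substrate of the relay, had a log2FC of 0.07 ± 0.06 (SE, adjusted p = 0.866). The 11 genes of TRIAP1, the PRELI proteins and cardiolipin synthesis ranged in log2FC from -0.11 to 0.13, and none passed an unadjusted p under 0.05.

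Csf2ra (ENSMUSG00000059326.7, GRCm38 chromosome 19, 61223957 to 61228429) encodes the ligand-binding chain of the receptor for GM-CSF, a growth factor of myeloid cells. It was at 0.472, 0.351, 0.453 and 0.466 CPM in Tg trained muscle, against 0.781, 0.926, 0.943 and 1.14 CPM in WT trained muscle. All Tg libraries lay below all WT libraries. These levels rest on 22, 20, 23 and 24 counts in Tg trained libraries and 42, 40, 36 and 55 counts in WT trained libraries. Csf2ra fell to a level 2.18-fold lower in Tg trained muscle (log2FC -1.12 ± 0.16 SE, adjusted p = 0.0177, edgeR). The call is lost with an adjusted p of 0.108 when the 8 trained libraries are fitted alone, and with 0.0535 to 0.143 when WT trained replicate 3 or 4 or any Tg trained library is left out.

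The other receptor genes of the family were not called. Csf2rb, the shared signalling chain, was at 1.18, 1.25, 1.5 and 1.48 CPM in Tg trained muscle, against 1.21, 1.55, 1.26 and 1.91 CPM in WT trained muscle. Its groups overlapped (log2FC -0.14 ± 0.22 SE, adjusted p = 0.937). The near-identical copy Csf2rb2 had an adjusted p of 0.996, and reads of both are divided by estimate, so that their levels are uncertain. Il3ra, the IL-3 binding chain, had a log2FC of -0.51 ± 0.27 (SE, adjusted p = 0.675).

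The promoter of Csf2ra is shown with that of the macrophage integrin gene Itgam, since both genes mark myeloid cells and both hold the purine-rich motif GAGGAAG, a core of sites bound by the myeloid factor PU.1. Each window is the 150 bases before the RefSeq start (GRCm38.p6), 5′ to 3′ on the strand of the gene, with the motif in capitals. The Csf2ra window lies at chr19:61228419-61228568 on the minus strand, where the GENCODE start is a few bases farther upstream than that of RefSeq. The Itgam window lies at chr7:128062490-128062639 on the plus strand.
Csf2ra: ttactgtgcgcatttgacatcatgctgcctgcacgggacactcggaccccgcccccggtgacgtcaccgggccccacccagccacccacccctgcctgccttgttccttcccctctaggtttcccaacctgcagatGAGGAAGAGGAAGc
Itgam: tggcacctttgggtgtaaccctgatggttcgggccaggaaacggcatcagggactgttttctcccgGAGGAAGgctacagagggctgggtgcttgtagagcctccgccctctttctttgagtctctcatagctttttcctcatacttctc
Both strands were searched. The Csf2ra window held 2 matches that share their end base, starting 14 and 8 bases before the start, and the Itgam window held 1. The motif was present in such a window of 7.85% of the 27025 genes with a promoter entry. It was present in 5 of the 18 macrophage and monocyte markers with an entry and in 6 of the 13 Fc receptor and ITAM signalling genes with an entry. A match describes these letters only.

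Macrophage and monocyte markers had lower values in Tg trained muscle. EdgeR called none of them. DESeq2 called 4, among them Itgam, Ctss and Laptm5, against 54 of all 17490 genes. Of 26 listed, 25 were tested and all of these were negative in log2FC (median -1.01), and 20 passed an unadjusted p under 0.05, against 4.73% of all genes. The groups did not overlap for 3 of the 25, against 2.76% of all genes. Their summed level was 80.0, 56.8, 63.2 and 58.97 CPM in Tg trained libraries, against 105, 67.5, 109 and 185 CPM in WT trained libraries. WT replicate 4 was the highest of the 8 libraries, and WT replicate 2 lay within the range of the Tg libraries. Without WT replicate 4, all 25 were negative, with a median of -0.69 and 14 at an unadjusted p under 0.05. WT replicate 4 is also the library with Alb, and the part of other tissue in these levels was not tested.

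Itgam, the integrin alpha chain of complement receptor 3, was at 1.46, 0.930, 0.826 and 0.932 CPM in Tg trained muscle, against 1.71, 1.39, 2.7 and 3.79 CPM in WT trained muscle. Tg replicate 1 overlapped WT replicate 2, and the other 3 Tg libraries lay below all WT libraries (log2FC -1.21 ± 0.29 SE, adjusted p = 0.287). Ctss, the lysosomal protease cathepsin S, was at 2.00, 1.3, 1.18 and 1.09 CPM in Tg trained muscle, against 2.66, 2.02, 2.93 and 8.10 CPM in WT trained muscle. Its groups did not overlap, by a narrow margin, and WT replicate 4 stood far above the rest (log2FC -1.51 ± 0.41 SE, adjusted p = 0.349). Laptm5, a lysosomal membrane protein of blood cells, had a log2FC of -0.996 ± 0.25 (SE, adjusted p = 0.321), and C1qb, a chain of complement C1q made by macrophages, one of -1.28 ± 0.33 (SE, adjusted p = 0.338). The general macrophage markers Adgre1 (-1.27 ± 0.42), Mrc1 (-0.86 ± 0.28), Lyz2 (-1.10 ± 0.32) and Cd68 (-0.60 ± 0.37, log2FC ± SE) had adjusted p-values from 0.368 to 0.750. These values were smaller without WT replicate 4, at -0.72 for Adgre1, -0.54 for Mrc1, -0.595 for Lyz2 and -0.10 for Cd68. For Ctss the log2FC without it was -0.87.

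Genes that carry activating and inhibitory signals in myeloid cells had the same direction. Of 18 Fc receptor and ITAM signalling genes tested, 17 were negative in log2FC (median -1.001), and 14 passed an unadjusted p under 0.05. The median was -0.67 without WT replicate 4. Pirb, an inhibitory receptor of myeloid cells, was at 0.945, 0.702, 1.14 and 0.777 CPM in Tg trained muscle, against 1.77, 1.37, 2.17 and 2.39 CPM in WT trained muscle. The Pirb groups did not overlap (log2FC -1.11 ± 0.25 SE, adjusted p = 0.287). Syk, the kinase that docks on phosphorylated ITAMs, had a log2FC of -0.79 ± 0.19 (SE, adjusted p = 0.287), and the phosphatase Inpp5d, which opposes such signals, one of -0.55 ± 0.15 (SE, adjusted p = 0.349). The list summed to 18.6 to 22.8 CPM in Tg trained libraries and 23.4 to 46.3 CPM in WT trained libraries, without overlap.

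Complement genes had a median log2FC of -0.89, with 20 of 21 negative and 11 at an unadjusted p under 0.05. EdgeR called none of them, and DESeq2 called 6, among them C3 and Cfp. C3, the central component that all complement pathways cleave, was at 26.2, 15.4, 20.9 and 16.3 CPM in Tg trained muscle, against 46.4, 28.7, 39.6 and 56.7 CPM in WT trained muscle. Every Tg library lay below every WT library (log2FC -1.12 ± 0.27 SE, adjusted p = 0.287). Cfp, properdin, which stabilises the alternative pathway convertase, had a log2FC of -1.39 ± 0.33 (SE, adjusted p = 0.287). Masp1, a serine protease that starts the lectin pathway, is not in the list counted here and is named for its small p. It was at 2.51, 3.19, 3.09 and 2.83 CPM in Tg trained muscle, against 1.82, 1.92, 1.65 and 1.75 CPM in WT trained muscle. The Masp1 groups did not overlap, with Tg higher (log2FC 0.70 ± 0.12 SE), and its adjusted p of 0.111 was shared with Oas2 as the smallest among genes that edgeR did not call. Without WT replicate 4, 17 of the 21 complement genes were negative, with a median of -0.64.

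Among secreted signals, the chemokine gene Ccl6 was at 1.18, 0.684, 0.669 and 0.427 CPM in Tg trained muscle, against 2.25, 1.20, 4.45 and 4.50 CPM in WT trained muscle. Its groups came within a small distance of each other at Tg replicate 1 and WT replicate 2 but did not overlap (log2FC -2.07 ± 0.40 SE, adjusted p = 0.250). Of 18 chemokines and receptors tested, 14 had a negative log2FC and 6 passed an unadjusted p under 0.05. Cxcl12, made by stromal cells, had a log2FC of 0.14 ± 0.10 (SE, adjusted p = 0.783). Lgals3, a galectin of activated macrophages, was at 1.25, 0.825, 1.06 and 0.757 CPM in Tg trained muscle, against 1.84, 2.29, 3.61 and 8.53 CPM in WT trained muscle. The Lgals3 groups did not overlap, and WT replicate 4 was the highest (log2FC -2.07 ± 0.46 SE, adjusted p = 0.287). All 7 tested MHC class II genes, which present peptides to helper T cells, were negative in log2FC (median -0.55). Among them Cd74, the invariant chain, had a log2FC of -0.55 ± 0.15 (SE, adjusted p = 0.366), and H2-Ab1 one of -0.63 ± 0.17 (SE, adjusted p = 0.349).

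**Figure D2:**
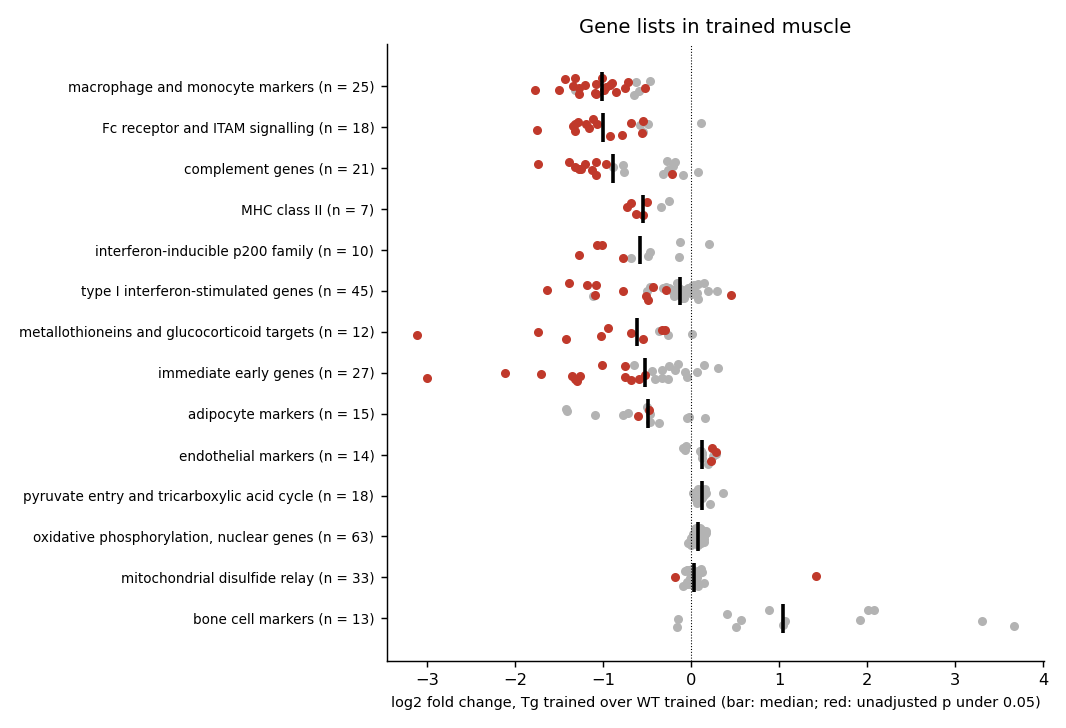
Each point is a tested gene, placed by its log2 fold change in Tg trained over WT trained muscle, in 14 lists; bars are list medians, and red points had an unadjusted p under 0.05 in edgeR. The macrophage and ITAM lists sit near -1.01 and -1.001, the list of tricarboxylic acid cycle genes near 0.12, and the bone cell markers, chosen after their values were seen and drawn in grey, near 1.04.

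Interferon-stimulated genes had a mixed pattern. Of 45 type I interferon-stimulated genes, 32 were negative in log2FC (median -0.13), with 10 lower and 1 higher at an unadjusted p under 0.05, against 4.73% and 3.24% of all genes. Without WT replicate 1 the median was -0.08. Oas2, a synthetase of the oligoadenylates that switch on RNase L, was at 0.751, 0.895, 0.846 and 0.641 CPM in Tg trained muscle, against 1.54, 1.20, 2.25 and 2.16 CPM in WT trained muscle. Its groups did not overlap (log2FC -1.18 ± 0.20 SE, adjusted p = 0.111). Oas2 was called by DESeq2 (adjusted p = 0.00076), and by edgeR without WT trained replicate 2 (0.0264) or WT untrained replicate 2 (0.0488). Lgals3bp, a secreted glycoprotein that binds galectins, had a narrower spread, with 5.78, 5.32, 5.65 and 4.97 CPM in Tg trained muscle, against 7.07, 6.86, 8.30 and 7.08 CPM in WT trained muscle. Here too every Tg library lay below every WT library (log2FC -0.43 ± 0.09 SE, adjusted p = 0.250). Irf7, the factor that amplifies interferon production, had a log2FC of -0.77 ± 0.23 (SE, adjusted p = 0.382), which was -0.51 without WT replicate 3. Trim21, a cytosolic antibody receptor, was the member that ran higher in Tg at an unadjusted p under 0.05 (log2FC 0.45 ± 0.14 SE, adjusted p = 0.386).

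The interferon-inducible p200 family, which holds sensors and regulators that bind DNA, was negative in log2FC for 9 of 10 members (median -0.59). Without WT replicate 4 the median was -0.38. Ifi204 was at 2.73, 1.54, 2.18 and 1.71 CPM in Tg trained muscle, against 4.13, 2.34, 4.61 and 6.04 CPM in WT trained muscle. Tg replicate 1 overlapped WT replicate 2 (log2FC -1.07 ± 0.24 SE, adjusted p = 0.287). Ifi205 had a log2FC of -1.02 ± 0.28 (SE, adjusted p = 0.349) and Ifi207 one of -0.78 ± 0.21 (SE, adjusted p = 0.349). Ifi205 was at -0.65 without WT replicate 4. Members of this family resemble each other in sequence, and their values are uncertain to that extent. Cgas, the cytosolic DNA sensor, had a log2FC of -0.38 ± 0.29 (SE, adjusted p = 0.815), at under 0.5 CPM in each trained library. Sting1, the adaptor behind it, was at 1.16, 1.00, 1.51 and 1.07 CPM in Tg trained muscle, against 1.47, 1.04, 0.864 and 1.04 CPM in WT trained muscle. Its groups overlapped (log2FC 0.09 ± 0.20 SE, adjusted p = 0.960), and the sign turned with single libraries left out.

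The promoter of Oas1a, another oligoadenylate synthetase, is shown because it holds the repeat that interferon-activated factors bind. Capitals mark GAAANNGAAA, searched on both strands, in the 150 bases before the RefSeq start (GRCm38.p6, chr5:120907526-120907675, minus strand).
Oas1a: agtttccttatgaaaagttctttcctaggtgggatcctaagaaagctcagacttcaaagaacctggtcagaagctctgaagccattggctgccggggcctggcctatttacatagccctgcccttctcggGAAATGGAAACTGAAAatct
The window held 2 overlapping matches, starting 20 and 14 bases before the start. The repeat was present in 1.85% of all 27025 genes with an entry, in 7 of the 32 interferon-stimulated genes with an entry and in 7 of the 9 p200 genes with an entry. Oas1a itself was at 0.193, 0.140, 0.374 and 0.155 CPM in Tg trained muscle, against 0.353, 0.370, 0.550 and 0.583 CPM in WT trained muscle. Tg replicate 3 overlapped the WT libraries (log2FC -1.10 ± 0.32 SE, adjusted p = 0.377), and Oas1a has near-identical copies, so that its level is uncertain.

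Metallothioneins and glucocorticoid targets had lower values in Tg trained muscle, with 11 of 12 negative, a median of -0.62 and 9 at an unadjusted p under 0.05. In untrained muscle the list median was -0.58, also with 11 of 12 negative. Metallothioneins bind zinc and copper, and glucocorticoids raise their transcripts. Mt2 was at 0.966, 0.439, 0.728 and 0.272 CPM in Tg trained muscle, against 1.21, 1.67, 11.7 and 6.39 CPM in WT trained muscle. The Mt2 groups did not overlap, but WT replicates 1 and 2 lay near the Tg libraries and WT replicates 3 and 4 far above (log2FC -3.12 ± 0.67 SE, adjusted p = 0.276). Mt1 was at 4.21, 3.10, 3.98 and 2.81 CPM in Tg trained muscle, against 5.30, 4.91, 19.2 and 17.7 CPM in WT trained muscle. The same 2 WT libraries were high (log2FC -1.74 ± 0.42 SE, adjusted p = 0.287). Fkbp5, a co-chaperone of the glucocorticoid receptor, was at 16.3, 9.91, 12.5 and 10.1 CPM in Tg trained muscle, against 12.5, 12.6, 33.8 and 40.9 CPM in WT trained muscle. Tg and WT replicates 1 and 2 overlapped, and WT replicates 3 and 4 again stood apart (log2FC -1.03 ± 0.31 SE, adjusted p = 0.380). Ddit4, an inhibitor of mTORC1, was high in the same WT libraries (log2FC -1.42 ± 0.45 SE, adjusted p = 0.414). Without WT replicate 4 the list median was -0.42, and without WT replicate 3 it was -0.54, with 5 genes at an unadjusted p under 0.05 in either case. The count was also 5 without Tg replicate 2 or 4. Fkbp5 was at -0.68 without WT replicate 4.

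The promoters of Mt1 and Mt2 are shown because the pair lies side by side on GRCm38 chromosome 8 and carries the metal response element that MTF1 binds. Capitals mark TGCNCNC on either strand, in the 150 bases before the RefSeq start (GRCm38.p6, chr8:94178939-94179088 for Mt1 and chr8:94172468-94172617 for Mt2, plus strand).
Mt1: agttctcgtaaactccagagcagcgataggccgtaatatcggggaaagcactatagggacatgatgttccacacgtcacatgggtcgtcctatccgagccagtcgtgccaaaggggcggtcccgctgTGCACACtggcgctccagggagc
Mt2: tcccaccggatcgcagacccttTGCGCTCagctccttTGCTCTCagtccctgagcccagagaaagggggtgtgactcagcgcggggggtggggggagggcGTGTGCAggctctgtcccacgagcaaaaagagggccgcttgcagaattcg
The Mt1 window held 1 match and the Mt2 window 3, of which 1 is on the minus strand. This short motif, in which N is any base, is common, with a match in such a window of 34.3% of genes. A match describes these letters only and need not be a metal response element.

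Immediate early genes, transcription factors and regulators that muscle activity and stress switch on within minutes, had lower values in Tg trained muscle. Of 27 tested, 24 were negative in log2FC (median -0.53), and 13 passed an unadjusted p under 0.05. Nr4a3, an orphan nuclear receptor that responds to exercise, was at 2.62, 1.53, 1.48 and 1.48 CPM in Tg trained muscle, against 4.02, 1.53, 17.1 and 34.1 CPM in WT trained muscle. WT replicate 2 was at the level of the Tg libraries, and WT replicates 3 and 4 were far above (log2FC -3.01 ± 0.70 SE, adjusted p = 0.287). Btg2, an antiproliferative factor, was at 9.60, 8.96, 9.74 and 9.57 CPM in Tg trained muscle, against 13.2, 12.2, 38.3 and 29.9 CPM in WT trained muscle. Its Tg libraries were close together and below all WT libraries (log2FC -1.30 ± 0.34 SE, adjusted p = 0.349). Fos, a subunit of AP-1, had a log2FC of -1.32 ± 0.53 (SE, adjusted p = 0.545) and overlapped between groups. Without WT replicate 4, 24 of 27 were negative, with a median of -0.44 and 6 at an unadjusted p under 0.05.

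**Figure D3:**
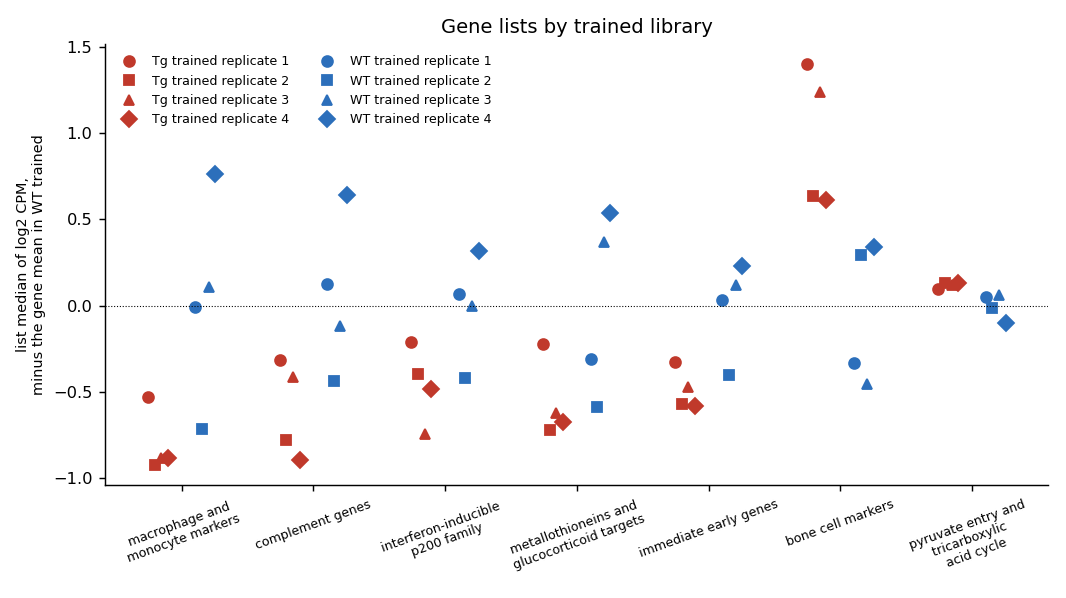
Per library, the median over the genes of a list of log2(CPM + 0.1) minus the mean of each gene in the WT trained libraries, for 7 lists; colours are genotypes and shapes replicate numbers. For macrophage and monocyte markers the Tg libraries lie between -0.93 and -0.53 and the WT libraries between -0.71 and 0.76. WT replicate 4 is the highest there. The bone cell markers were chosen after their values in this contrast were seen. For them the Tg libraries lie between 0.61 and 1.40 and the WT libraries between -0.46 and 0.34.

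Genes known from bone had higher values in Tg trained muscle, although edgeR called none. DESeq2 called 4 of them, Ibsp, Mmp13, Acp5 and Mmp9, against 54 of all 17490 genes. Those calls rest on the same counts by which these genes were noticed, so they are not separate support. They appeared among the genes with the smallest p-values, and a list of bone cell markers was made after that, so it is described without a test. The 13 markers tested had 11 positive values and a median log2FC of 1.04, which was 0.67 without WT replicate 1 and 1.67 without WT replicate 4. Their summed level was 44.2, 24.3, 32.0 and 25.1 CPM in Tg trained libraries, against 14.8, 18.2, 17.2 and 25.1 CPM in WT trained libraries. Tg replicates 2 and 4 and WT replicate 4 were at about the same sum. Ibsp, a sialoprotein of bone matrix, was at 5.13, 1.72, 1.67 and 1.65 CPM in Tg trained muscle, against 0.0930, 0.486, 0 and 0.208 CPM in WT trained muscle. All Tg libraries lay above all WT libraries, and Tg replicate 1 stood above the rest (log2FC 3.67 ± 0.75 SE, adjusted p = 0.267). Mmp13, a collagenase of cartilage and bone, was at 8.85, 2.81, 5.20 and 3.18 CPM in Tg trained muscle, against 0.149, 1.55, 0.0262 and 0.312 CPM in WT trained muscle. The groups did not overlap (log2FC 3.30 ± 0.74 SE, adjusted p = 0.287). Acp5, the tartrate-resistant phosphatase of osteoclasts, had a log2FC of 2.08 ± 0.49 (SE, adjusted p = 0.287), and Mmp9, a gelatinase of osteoclasts and neutrophils, one of 2.01 ± 0.39 (SE, adjusted p = 0.250). In untrained muscle Mmp13 was at 3.52 ± 2.07 CPM in Tg and 2.72 ± 1.99 CPM in WT libraries (SD, n = 4 each), so the WT trained libraries were the low ones of the 4 groups. Tendon and cartilage markers summed to 124, 76.3, 125 and 80.9 CPM in Tg trained libraries, against 79.4, 26.6, 50.4 and 128 CPM in WT trained libraries, and these groups overlapped. The part of adjoining tissue in these levels was not tested.

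Of the fast myosin heavy chain genes Myh2, Myh1 and Myh4, Myh2 of type IIa fibres had the largest log2FC. It was at 977, 1547, 1898 and 1547 CPM in Tg trained muscle, against 697, 564, 561 and 536 CPM in WT trained muscle. Every Tg library was above every WT library (log2FC 1.34 ± 0.36 SE, adjusted p = 0.349). In the fit of the 8 trained libraries alone, its adjusted p was 0.0287. Without training, Myh2 had 786, 1310, 1708 and 973 CPM in Tg libraries, against 563, 127, 452 and 613 CPM in WT libraries, which again did not overlap (log2FC 1.44 ± 0.36 SE, adjusted p = 0.0697). Myh1 of type IIx fibres had a log2FC of 0.33 ± 0.28 (SE, adjusted p = 0.842), and Myh4 of type IIb fibres one of -0.24 ± 0.14 (SE, adjusted p = 0.738). Mybpc2, the fast form of myosin-binding protein C, was at 1967, 1971, 1917 and 2039 CPM in Tg trained muscle, against 2270, 2442, 2392 and 2143 CPM in WT trained muscle. The Mybpc2 groups did not overlap, with Tg lower (log2FC -0.23 ± 0.10 SE, adjusted p = 0.589).

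Slow-fibre genes did not share a direction, with 5 of 15 positive. Myoz2, a Z-disc protein of slow and oxidative fibres, was at 16.5, 23.6, 24.6 and 26.6 CPM in Tg trained muscle, against 15.9, 11.6, 12.9 and 11.9 CPM in WT trained muscle. Its groups did not overlap, by a small margin (log2FC 0.80 ± 0.32 SE, adjusted p = 0.544). Myl3, a slow myosin light chain, had a log2FC of 0.99 ± 0.43 (SE, adjusted p = 0.589), and Myh7 one of -2.39 ± 1.08 (SE, adjusted p = 0.608), which was -0.95 without WT replicate 3. Cryab, the small heat shock protein alpha-B crystallin that guards the sarcomere, was at 363, 284, 198 and 287 CPM in Tg trained muscle, against 187, 140, 170 and 194 CPM in WT trained muscle. Its groups did not overlap, and Tg replicate 3 lay just above the highest WT library (log2FC 0.71 ± 0.15 SE, adjusted p = 0.272). In untrained muscle Cryab had a log2FC of -0.015 ± 0.15 (SE, adjusted p = 0.973), and the difference of the transgene contrasts had an adjusted p of 0.593.

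**Figure D4:**
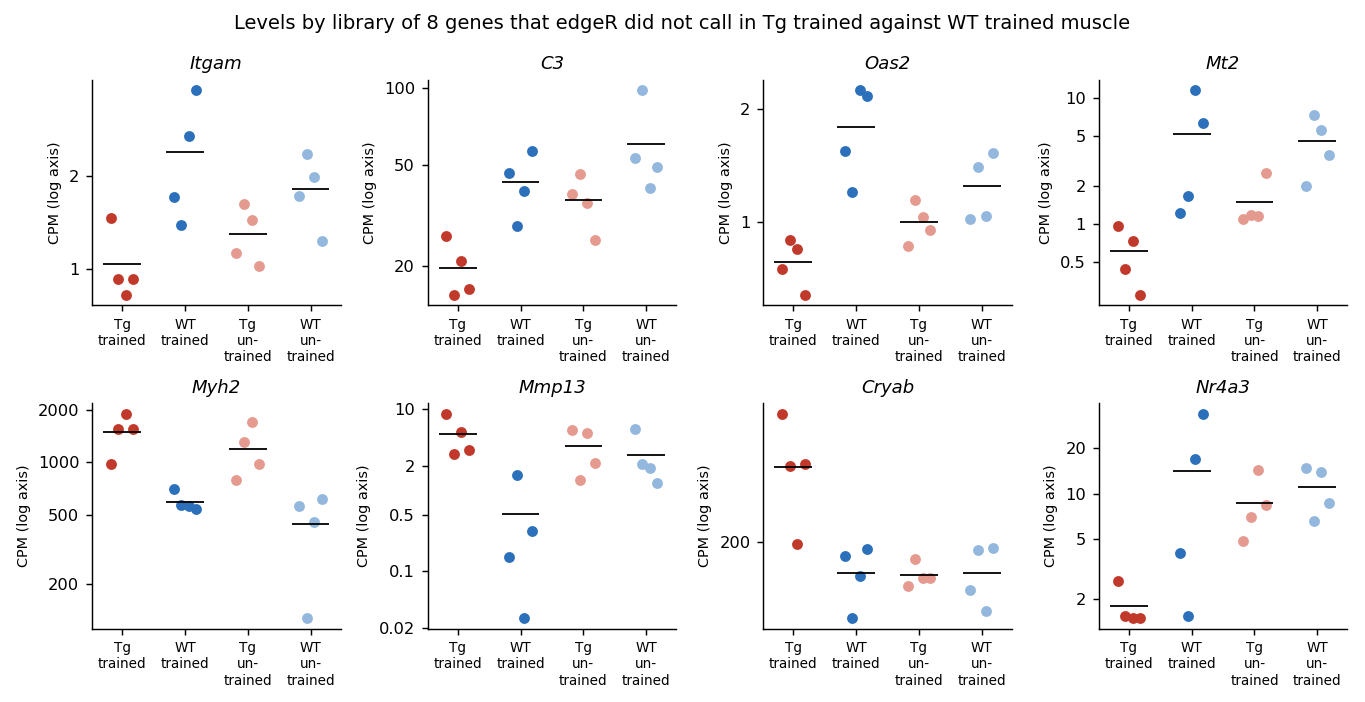
CPM on log axes of 8 genes in each library of the 4 groups, with the mean of 4 libraries as a line. In trained muscle the groups overlap for Itgam and Nr4a3 and do not overlap for C3, Oas2, Mt2, Myh2, Mmp13 and Cryab; Myh2 lies at 977 to 1898 CPM in Tg trained and 536 to 697 CPM in WT trained muscle.

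Nuclear genes of oxidative metabolism mostly had small positive log2FC values in Tg trained muscle. None passed an unadjusted p under 0.05 in the edgeR fit of all 16 libraries. All 18 genes of pyruvate entry and the tricarboxylic acid cycle had a positive log2FC, with a median of 0.12, and the groups did not overlap for 6 of them, against 2.94% of all genes. Cs, citrate synthase, was at 411, 421, 422 and 425 CPM in Tg trained muscle, against 393, 381, 396 and 365 CPM in WT trained muscle. The Cs libraries did not overlap, at a log2FC of 0.13 ± 0.14 (SE, adjusted p = 0.903). Idh2, the mitochondrial NADP-dependent isocitrate dehydrogenase, had a log2FC of 0.36 ± 0.22 (SE, adjusted p = 0.743). In the fit of the 8 trained libraries alone, the adjusted p was 0.308 for Cs and 0.177 for Idh2 (edgeR). That fit had 2001 genes at an unadjusted p under 0.05, against 1395 in the fit of all libraries. Of 63 nuclear genes of oxidative phosphorylation, 59 were positive, with a median of 0.08, and the groups did not overlap for 8. Of 13 proteins encoded in mitochondrial DNA, 11 were positive with a median of 0.20, while mt-Co3 was at -1.86. None of the 13 was called. An unadjusted p under 0.05 (edgeR) was passed by 1 of them, with Tg lower, and by 0 without WT replicate 1 or Tg replicate 2. In the fit of the 8 trained libraries alone, the adjusted p was 0.318 for mt-Nd5 and 0.322 for mt-Nd4 (edgeR). Both were higher in Tg, at a log2FC of 0.29 and 0.27 with all libraries. WT replicate 4, the library with Alb, had the lowest level of these lists, and without it the medians were 0.09 for the cycle and 0.06 for oxidative phosphorylation.

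Of 23 genes of fatty acid uptake and oxidation, 17 had a positive log2FC, with a median of 0.04 that turned to -0.004 without Tg replicate 3. Ucp3 and Pdk4 were the 2 at an unadjusted p under 0.05, both with Tg lower. Ucp3, the muscle uncoupling protein, was at 61.8, 54.8, 44.9 and 57.3 CPM in Tg trained muscle, against 77.0, 72.6, 95.9 and 109 CPM in WT trained muscle. All Tg libraries lay below all WT libraries (log2FC -0.70 ± 0.14 SE, adjusted p = 0.267). Pdk4, a kinase that holds back pyruvate dehydrogenase, had a log2FC of -0.55 ± 0.18 (SE, adjusted p = 0.432) without overlap of the groups. Gpt2, Spns2 and Sec61b belong to none of the lists and are named for their small p. Gpt2, the mitochondrial alanine aminotransferase, was at 161, 146, 140 and 146 CPM in Tg trained muscle, against 174, 174, 210 and 203 CPM in WT trained muscle. Its groups were likewise apart (log2FC -0.36 ± 0.07 SE, adjusted p = 0.267). Spns2, an exporter of sphingosine-1-phosphate, was at 29.2, 27.3, 28.2 and 28.9 CPM in Tg trained muscle, against 37.9, 44.3, 44.1 and 38.3 CPM in WT trained muscle. The Spns2 groups stood apart (log2FC -0.53 ± 0.12 SE, adjusted p = 0.287), and the fit of the 8 trained libraries alone gave an adjusted p of 0.0194. Sec61b, a subunit of the translocon of the endoplasmic reticulum, had a log2FC of -0.41 ± 0.08 (SE, adjusted p = 0.267).

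Most genes of vessel cells had small positive values. Of 14 endothelial markers, 11 had a positive log2FC, with a median of 0.12 and 3 at an unadjusted p under 0.05, and of 10 smooth muscle and pericyte markers 7 were positive, with a median of 0.12 and 3 at an unadjusted p under 0.05. The endothelial count of 3 became 0 without WT replicate 3, WT replicate 4 or Tg replicate 3 and 5 without WT replicate 2, and the median of smooth muscle and pericyte markers was 0.08 without Tg replicate 3. The endothelial median was 0.19 without WT replicate 2 and 0.18 without Tg replicate 1. The pericyte proteoglycan gene Cspg4 was at 14.7, 16.1, 18.5 and 17.6 CPM in Tg trained muscle, against 14.7, 13.9, 11.2 and 11.8 CPM in WT trained muscle. Its groups touched without overlap (log2FC 0.37 ± 0.11 SE, adjusted p = 0.371). Gja1, connexin 43, which couples cells of vessels and stroma, was at 10.54, 10.8, 11.1 and 9.24 CPM in Tg trained muscle, against 7.81, 8.48, 5.16 and 5.66 CPM in WT trained muscle. All Tg libraries lay above all WT libraries (log2FC 0.62 ± 0.15 SE, adjusted p = 0.287). Nr3c2, the mineralocorticoid receptor, had a log2FC of 0.31 ± 0.07 (SE, adjusted p = 0.287), and the transcription factor gene Tbx2 one of 0.81 ± 0.18 (SE, adjusted p = 0.287), both without overlap. Of 15 adipocyte markers 14 were negative, with a median of -0.49, and 2 passed an unadjusted p under 0.05, which became 5 without WT replicate 1 and 6 without Tg replicate 3. Pparg, the master regulator of fat cells, had a log2FC of -0.48 ± 0.15 (SE, adjusted p = 0.421). Of 16 markers of fibro-adipogenic progenitors 13 were negative, with a median of -0.24, which was -0.14 without WT replicate 4 and -0.16 without WT replicate 1.

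The transgene contrast was next set beside the same contrast without training, which uses no library of the trained groups but shares the fit. The untrained contrast includes WT untrained replicate 2, the library with the highest TMM factor. Over 17490 genes the log2FC values of both contrasts had the same sign for 61.3%, with a Pearson r of 0.229 and a Spearman rho of 0.3 across genes, which are not independent. Of the 1395 genes at an unadjusted p under 0.05 in trained muscle, 1060 (76.0%) had the same sign in untrained muscle. Without training, metallothioneins and glucocorticoid targets had a list median log2FC of -0.58, with 11 of 12 negative. The median was -0.54 for the p200 family, -0.46 for complement genes (20 of 21 negative) and -0.35 for macrophage and monocyte markers (23 of 25). For Fc receptor and ITAM signalling genes it was -0.17, for MHC class II genes -0.14 and for adipocyte markers 0.08. The difference of the contrasts was called for 9 genes (0.0515%), of which 2 were higher and 7 lower. The log2FC of Chchd4 with training exceeded that without by 0.06 ± 0.12 (SE, adjusted p = 0.959). Csf2ra had a log2FC of -1.12 with training and -0.20 without, and their difference of -0.92 ± 0.22 (SE) had an adjusted p of 0.271.

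Called genes of this difference included Apold1, an endothelial gene that responds early to stimuli. In trained muscle it was at 5.37, 4.63, 3.48 and 5.57 CPM in Tg libraries, against 11.2, 6.44, 5.39 and 5.26 CPM in WT libraries. In untrained muscle it was at 11.9, 13.2, 14.8 and 17.0 CPM in Tg libraries, against 5.79, 2.06, 4.27 and 4.27 CPM in WT libraries. The transgene contrast was thus -0.58 with training and 1.80 without on the log2 scale, and the difference of -2.38 was called (adjusted p = 0.0268, edgeR). The call is lost, with an adjusted p of 0.0561 to 0.0785, without Tg trained replicate 1, 2 or 3, Tg untrained replicate 2, 3 or 4, or WT untrained replicate 3 or 4. Other immediate early genes had the same pair of signs, such as Fos (-1.32 and 2.36, adjusted p of the difference 0.129) and Klf4 (-0.75 and 0.87, adjusted p of the difference 0.202). The median over the immediate early list was -0.53 with training and 0.38 without. Thap2, a zinc finger gene on chromosome 10, was at 6.22 to 7.45 CPM in Tg trained and 5.21 to 6.91 CPM in WT trained libraries, and its neighbour Zfc3h1 at 15.4 to 17.7 CPM and 15.1 to 17.3 CPM. The contrasts of this pair differed (1.04 and 0.85, adjusted p = 0.0105 and 0.0266), with the WT untrained libraries the high ones, at 10.8 to 13.9 CPM for Thap2. With single libraries left out, Thap2 stayed called, and Zfc3h1 was lost, at an adjusted p of 0.0562 to 0.0735, without Tg trained replicate 1 or 2, Tg untrained replicate 1, 3 or 4, or WT trained replicate 1 or 2. Without the libraries above 10 CPM of Myh7, chosen after seeing the data, Thap2, Apold1 and Zfc3h1 all missed the threshold (adjusted p = 0.0831, 0.0677 and 0.147, edgeR). Apold1 also missed it in the robust fit (adjusted p = 0.0636, edgeR), and Zfc3h1 with the replicate block (0.061). The 6 other called genes were Hist1h4m and 5 gene models without a descriptive name.

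**Figure D5:**
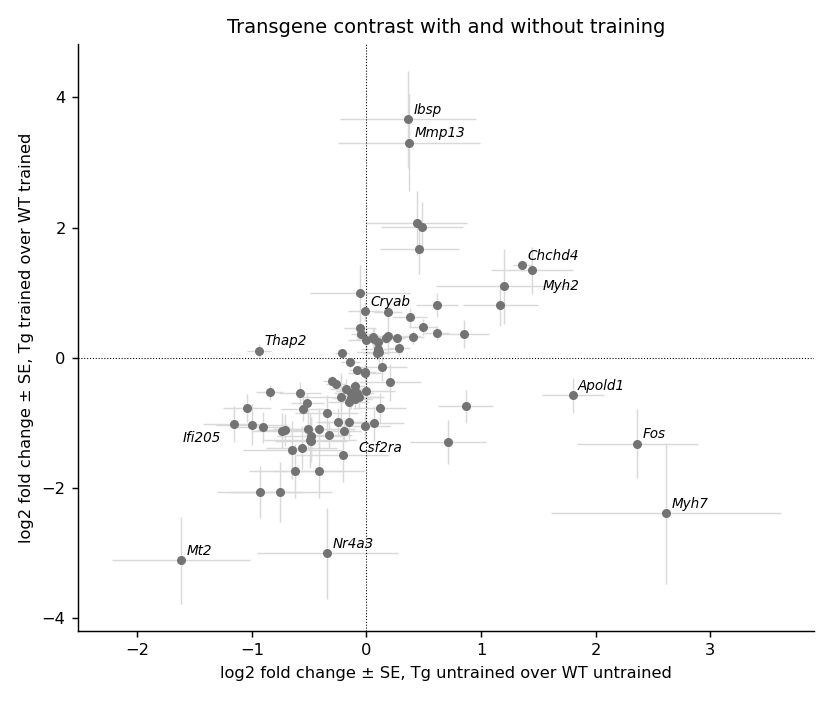
The log2 fold change with SE of 88 genes described or checked here, in Tg trained over WT trained muscle (vertical) and Tg untrained over WT untrained muscle (horizontal). Chchd4 lies at 1.42 and 1.36, Csf2ra at -1.12 and -0.20, and Apold1 at -0.58 and 1.80.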

How the data were processed

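Per the labels' protocols, muscle RNA was column-purified and made into SMARTer mRNA-seq libraries. The deposited table holds RSEM expected counts that the authors made with STAR 2.7.8a, RSEM 1.3.2 and the mm10 build, per the submitters' processing notes. The annotation release and strand setting are not given in the sources used here, so reads of genes that overlap, on either strand, cannot be told apart. Of the values, 12.48% were not whole, and they were rounded to whole numbers.

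With filterByExpr by group, 17490 of 55487 genes entered the tests. All 16 libraries entered an edgeR 4.0.16 quasi-likelihood fit (R 4.3.3) with TMM factors and a mean per group, with Benjamini-Hochberg adjustment over all tested genes. CPM were scaled by library size and TMM factor, and the biological coefficient of variation was 14.14%. The SE of an edgeR log2FC was calculated back from the test, as its absolute value over the square root of the F statistic. No pair of trained replicates agreed within sampling noise. Chi-square per degree of freedom was 7.06 to 14.07 between Tg trained libraries and 12.41 to 45.31 between WT trained libraries. Positions came from GENCODE annotation of GRCm38 by gene identifier and promoters from RefSeq by symbol. Oas2 and Ifi204 have no entry among the promoters used.

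The members, the gene lists and the rule for named genes were chosen with earlier results of these data known. The rule took Chchd4, Triap1, Aifm1, Gfer and Csf2ra, called genes, the 15 smallest p-values in each direction at a mean of at least 1 CPM, up to 4 members of each list by p, and the 5 smallest for the difference of contrasts. Other genes named (Csf2rb2, Adgre1, Mrc1, Lyz2, Cd68, Cgas, Sting1 and others) were chosen after their values were seen. The text names only part of the genes the rule took. Lists are described by counts and medians, with no set test. The alternatives were RLE size factors, 2 other filters, DESeq2 1.42.0, limma-voom (limma 3.58.1), a robust fit, a replicate block, the 8 trained libraries alone, removal of mitochondrial rRNA and leaving out each library. The fit was tested on simulated data.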

Additional observations from a re-analysis of the deposited data

Results flagged for a closer look

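Within groups of 4 libraries, a library was set apart where its gap to the nearest other, as a share of the group's range, exceeded Dixon's critical value. Chance gives this in about 1 in 20 groups. Both trained groups of 88 genes and a few more were screened, so chance alone would set apart several libraries. In Tg trained muscle a low library stood apart for Csf2ra (0.351 CPM). A high Tg trained library stood apart for Itgam (1.46 CPM), Trim21 (2.18 CPM), Ifi205 (4.98 CPM), Nr4a3 (2.62 CPM), Ibsp (5.13 CPM) and the small Maf factor gene Maff (1.40 CPM). Nnt, the mitochondrial transhydrogenase, was at 36.9 CPM in Tg trained replicate 3, against 6.25 to 9.35 CPM in the other Tg trained libraries and 8.96 to 26.8 CPM in WT trained libraries. In WT trained muscle a high library stood apart for Ctss (8.10 CPM), Lgals3bp (8.30 CPM), Myh7 (29.7 CPM) and Alb (35.6 CPM). The cause was not tested for any of these.

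The transgene contrast differed between trained and untrained muscle, by the edgeR test of the difference, for Thap2 (1.04 on the log2 scale), Zfc3h1 (0.845) and Apold1 (-2.38).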

How the results depend on the processing

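The count of 2 called genes became 1 with no filter, 1 with the filter of at least 1 CPM in 4 trained libraries, 5 with the 8 trained libraries alone (TMM, or RLE as chosen after seeing the data) and 54 with DESeq2. It ranged from 1 to 16 with single libraries left out: 16 without WT trained replicate 2, 11 without WT untrained replicate 2, and 1 without WT trained replicate 3 or 4 or any Tg trained library. Genes at an unadjusted p under 0.05 (edgeR) numbered 1395 with all libraries. With single libraries left out they numbered from 985, without Tg trained replicate 2, to 2007, without WT untrained replicate 2. The count of 9 for the difference of contrasts became 15 with no filter, 35 with DESeq2 and 4 without the libraries above 10 CPM of Myh7 (chosen after seeing the data). Deviations from the group means had correlations of -0.153 to 0.128 in same-numbered trained libraries and -0.199 to 0.161 in differently numbered ones. The labels do not say whether the numbers pair libraries, and these few correlations cannot decide it. A fit with the replicate block called 1 gene for the transgene and 7 for the difference. By list, DESeq2 called 6 of 21 complement genes and 4 of 25 macrophage and monocyte markers. It called 2 in each of the ITAM, chemokine, type I interferon, metallothionein and heat shock lists. Outside the bone cell markers, it called at most 1 in any other list.

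Chchd4 was called under all 28 alternatives, with a log2FC of 1.37 to 1.47 over left-out libraries. Csf2ra kept its sign but missed the threshold with no filter (log2FC -1.12, adjusted p = 0.0789, edgeR), with the replicate block (-1.12, 0.0780), with the 8 trained libraries under TMM (-1.12, 0.108) or RLE (-1.12, 0.111), and, as chosen after seeing the data, without the libraries above 10 CPM of Alb (-1.01, 0.104) or of Myh7 (-1.12, 0.0936). Over left-out libraries its log2FC was -1.21 to -1.02. It was not tested under the filter of at least 1 CPM. The log2FC of Csf2rb turned to 0.016 without the Alb libraries and ranged from -0.23 to 0.013 over left-out libraries; that of Sting1 turned to -0.006 without the Myh7 libraries and ranged from -0.051 to 0.265. The causes were not tested. Of 2458 values of 88 genes, 2387 kept sign and side of the threshold, and 54 passed it newly, in 34 genes. Oas2, Masp1 and Ccl6 passed it with DESeq2 and without WT trained replicate 2 or WT untrained replicate 2. Lgals3bp passed it with DESeq2 and without WT untrained replicate 2, and Cryab and Ucp3 with DESeq2 only. With 20 to 55 counts a library, Csf2ra is near the limit of this depth.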

Other observations

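Other lists were described after their values were seen. Of 22 lysosomal proteases and hydrolases, 21 had a negative log2FC in Tg trained over WT trained muscle, with a median of -0.12 and 7 lower at an unadjusted p under 0.05, which became 2 without WT replicate 4 or Tg replicate 2 and 3 without Tg replicate 4. Among them Ctsh, a cathepsin, had a log2FC of -0.52 without overlap of the groups. All 6 erythroid markers were positive, with a median of 0.285.

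Heat shock genes ran both ways. Hspa8, the constitutive Hsp70, had a log2FC of -0.25 without overlap of the groups, while Hspb7, a small heat shock protein of muscle, had one of 0.84 with overlap. Of the mast cell markers, the receptor gene Kit was at 0.57 and the protease genes Mcpt4 and Tpsb2 at -1.09 and -0.83. None of these was called by edgeR.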
